A study of Mus musculus with 24 samples.

Results

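Collagens are the main structural proteins of the extracellular matrix, and each is a triple helix built from 3 chains. These can be copies of the same chain or the products of different genes. Fibroblasts make the fibrillar collagens (types I, III, V, XI and their relatives), which assemble into the ropes that carry tension, and the FACIT chains, which sit on the surface of those fibrils. They also secrete type VI collagen, which forms beaded filaments around cells, and type IV collagen, which forms the sheet-like network of basement membranes. The collagen chains described here are all 44 rows of the count table whose symbol has the form Col, a number, a and a number, of 47480 rows in all. They were grouped by textbook class into 11 fibrillar chains, 6 basement membrane chains (type IV), 9 FACIT chains and 18 other chains.

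The libraries were made from poly(A)-selected RNA of wild-type mouse embryonic fibroblasts (MEFs), cultured connective-tissue cells of the embryo. All 24 libraries shared that genotype, and the 8 groups of 3 libraries crossed 3 factors: siCTRL or siCop1, DMSO or KL001, and no Dexa or Dexa. The siRNA siCop1 is named for Cop1, a substrate-recognition subunit of a CRL4 ubiquitin ligase whose known targets include the AP-1 protein c-Jun, and siCTRL is its control. KL001 is a small molecule known to stabilise cryptochromes, DMSO is its solvent control, and Dexa is given by that abbreviation only. The groups were thus siCTRL DMSO, siCTRL DMSO Dexa, siCTRL KL001, siCTRL KL001 Dexa, siCop1 DMSO, siCop1 DMSO Dexa, siCop1 KL001 and siCop1 KL001 Dexa. The labels state no dose, treatment time, mouse strain or number of embryos, and do not say whether the 3 replicates were separate cultures, so p-values measure the spread between these libraries, which may be technical. The title of the series asks whether cryptochromes act on the assembly of the COP1 ligase.

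The libraries held between 21409988 and 27875023 counts (median 25337292). Cop1 itself, listed under its older symbol Rfwd2, stood at 24.99 to 29.72 CPM (counts scaled to library size) in the 12 siCTRL libraries and at 4.329 to 5.787 CPM in the 12 siCop1 libraries, so the libraries matched their siRNA labels. Of 9 fibroblast markers, 8 averaged at least 1 CPM and their summed level was 6234 to 7709 CPM over the libraries; the proteoglycan genes Lum (0.645 CPM) and Dcn (2.73 CPM) were low. That fibroblast sum moved with the groups: it was 6833 to 6905 CPM in siCTRL DMSO, 6234 to 6486 CPM in siCTRL KL001, 7565 to 7709 CPM in siCTRL DMSO Dexa and 6758 to 6905 CPM in siCop1 DMSO. Markers of other cell types also moved with some groups. The summed level of 8 heart muscle markers was 0.797 to 71.4 CPM in siCTRL libraries and 1.05 to 1.90 CPM in siCop1 libraries; Myh6, Tnni3 and Tnnt2 passed 1 CPM on average, and all 8 had counts in some library. The summed level of the 8 chondrocyte markers in the table was 47.9 to 54.5 CPM in siCTRL DMSO and 71.3 to 73.2 CPM in siCTRL DMSO Dexa; most of it was Sox9, Acan averaged 1.86 CPM, and Matn1 had 1 count in all. Neural and Schwann markers summed to 14.3 to 18.9 CPM in siCTRL and 10.1 to 14.1 CPM in siCop1 libraries, without overlap, and endothelial markers to 2.30 to 3.03 CPM in siCTRL DMSO and 1.36 to 1.97 CPM in siCTRL DMSO Dexa. Squamous epithelium markers summed to 8.39 to 77.8 CPM and were highest in 1 siCop1 DMSO Dexa library. In RNA from whole cultures, fewer cells of a type and less RNA per cell cannot be told apart. The part of these cells in the collagen results was not tested, except that the counts of changed chains with the heart muscle marker sum as a covariate are given with the alternatives.

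For some chains that the results turn on, stretches with a motif match before the RefSeq transcription start (GRCm38.p6) follow. They are printed 5′ to 3′ on the strand of the gene with the matched motif in capitals. A regulatory role of these stretches was not tested. The capitals mark a TATA box (TATAAA) 32 bases before the start of Col10a1 at chr10:34389851-34389980 (+ strand), and a CCAAT box, read on the other strand as ATTGG, 79 bases before the start of Col11a1 at chr3:114030410-114030539 (+ strand). They mark a CCAAT box 109 bases before the start of Col1a2 at chr6:4505497-4505526 (+ strand), and an AP-1 motif (TGANTCA) 90 bases before the start of Col6a1 at chr10:76726116-76726145 (− strand). The Col1a2 and Col6a1 stretches of 30 bases lie within the bounds that GENCODE annotates for these genes.
Col10a1: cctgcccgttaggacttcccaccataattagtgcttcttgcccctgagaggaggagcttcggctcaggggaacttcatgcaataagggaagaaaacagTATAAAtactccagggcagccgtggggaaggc
Col11a1: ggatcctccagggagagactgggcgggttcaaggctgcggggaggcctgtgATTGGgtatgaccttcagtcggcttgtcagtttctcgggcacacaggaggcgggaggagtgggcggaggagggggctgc
Col1a2: aaaagaatggaaCCAATttaagaagccccg
Col6a1: tgctgatgctgTGACTCActcagctttgag

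RefSeq promoters were matched for 35 of the 44 chains, and the 250 bases before the start were searched on both strands. The other 9 were not searched: Col1a1, Col2a1, Col4a3, Col5a2, Col9a3, Col12a1, Col14a1, Col22a1 and Col26a1. The motif counts therefore say nothing of these chains. The AP-1 motif was found in 1 chain, Col6a1, and in 6.75% of all 32851 promoter windows. The E-box CACGTG, a motif of the circadian clock, was found in none of the 35 chains and in 6.02% of all windows, and the glucocorticoid receptor motif in none of the 35 and in 0.387% of all windows. CCAAT (or ATTGG) was found in 13 chains and in 33.8% of all windows, and TATAAA (or TTTATA) in 5 chains and in 12.4% of all windows. Motifs were counted separately and may overlap. These are matches of letters, not sites.

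Collagen transcripts made up 4.61% to 6.17% of all counts in a library, and Col1a1 and Col1a2, the 2 chains of type I collagen, were first and second of all genes by mean count. By group, the share was highest in siCTRL DMSO (6.06% ± 0.130, SD, n = 3) and lowest in siCop1 KL001 (4.68% ± 0.0631, SD, n = 3); the share was not tested. Together the type I chains held 58.0% to 64.9% of the collagen counts. On the scale of CPM per kilobase of principal transcript, which allows levels to be compared between genes, Col1a1 averaged 3157 and Col1a2 2617 over the 24 libraries. The next levels on that scale were Col3a1 at 674.7, Col6a1 at 552.5, Col5a2 at 539.8, Col6a2 at 362.5, Col5a1 at 263.2, Col4a1 at 251.4, Col4a2 at 216 and Col12a1 at 127. The ranges of several neighbours in this order overlapped between libraries, as the plot of levels shows.

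**Figure D1:**
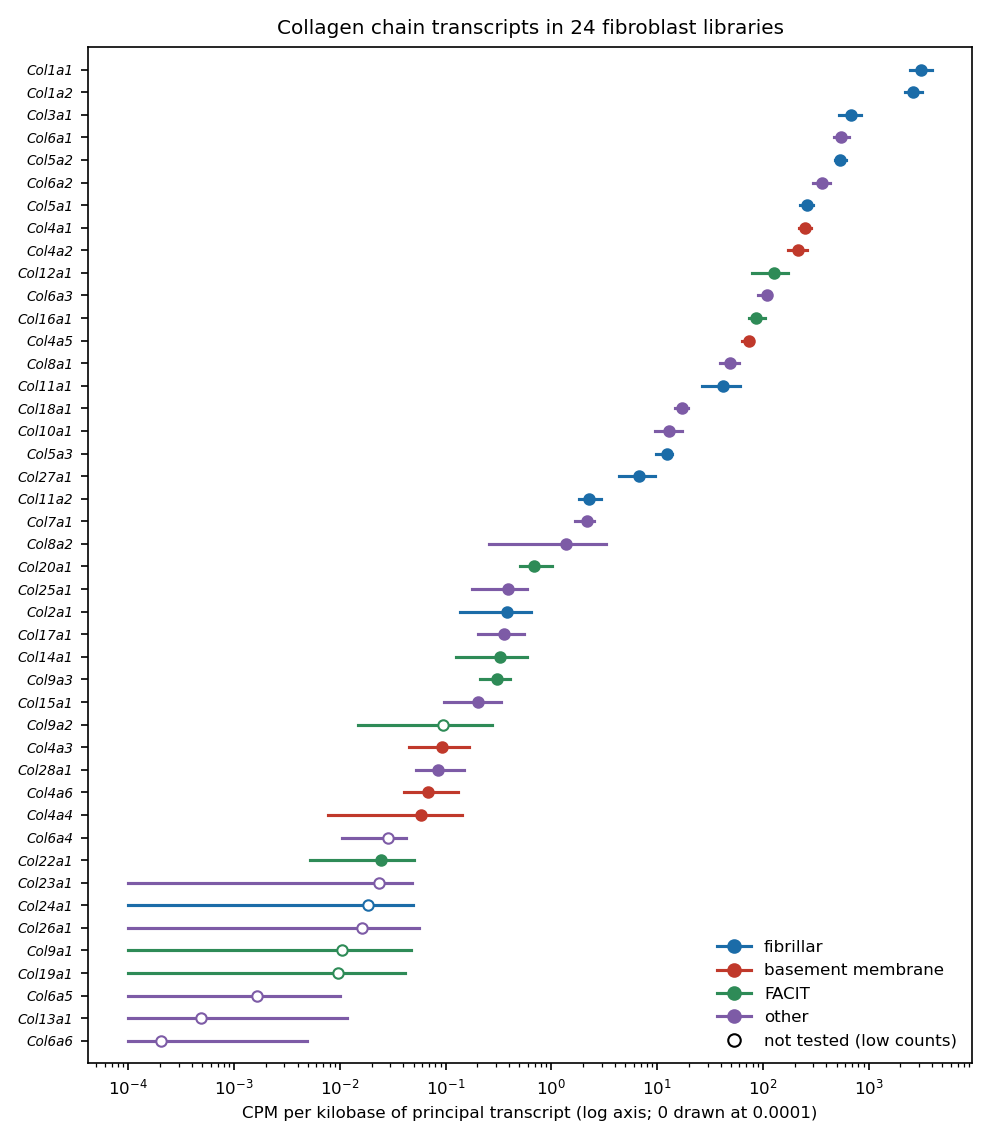
Level of each of the 44 collagen chains in CPM per kilobase of principal transcript (log axis); the point is the mean over 24 libraries, the line runs from the lowest to the highest library, and colour gives the class. Col1a1 and Col1a2 lie at 3157 and 2617, and the 10 open points are chains whose counts were too low to test.

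Of the 44 chains, 34 passed the filter on low counts (about 10 counts in a library of median size, reached in at least 3 libraries) and were tested, and 21 of these averaged at least 10 CPM. The tested chains were 10 fibrillar, 6 type IV, 6 FACIT and 12 other chains. The 10 that did not pass were Col24a1 (fibrillar), Col9a1, Col9a2 and Col19a1 (FACIT), Col6a4, Col6a5 and Col6a6 (type VI relatives), Col13a1 and Col23a1 (transmembrane) and Col26a1. Col9a2 had 166 counts over all 24 libraries, Col26a1 had 27, and Col13a1 and Col6a6 had 1 each. A chain could pass through 1 group in which it was high, so the counts below describe the tested chains and not all members.

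Changes were tested with edgeR's quasi-likelihood test over all 14772 genes kept, and a chain is said to have changed, risen or fallen where its Benjamini-Hochberg adjusted p was below 0.05. With Dexa in siCTRL DMSO, 12 of 34 chains changed, against 26.8% of all genes tested: 7 rose (all genes 12.7%) and 5 fell (14.1%). In siCTRL KL001, 14 of 34 chains changed, against 26.8% of all genes tested: 8 rose (all genes 12.7%) and 6 fell (14%). For Dexa in siCop1 DMSO, 13 of 34 chains changed, against 23.7% of all genes tested: 9 rose (all genes 12%) and 4 fell (11.6%). For Dexa in siCop1 KL001, 12 of 34 chains changed, against 24.5% of all genes tested: 8 rose (all genes 12.1%) and 4 fell (12.4%). The falls with Dexa depended on single libraries. In siCTRL DMSO they numbered 2 without siCTRL DMSO replicate 3 or siCTRL DMSO Dexa replicate 3, and 3 without siCTRL DMSO replicate 2 or siCTRL DMSO Dexa replicate 1 or 2. In siCop1 DMSO they numbered 2 without replicate 3 of either group, and in siCop1 KL001 2 without replicate 2 of either group. With the length and GC trend removed, Dexa in siCTRL KL001 gave 8 higher and 9 lower. For Dexa the chains' shares in the 4 settings were 35.29%, 41.18%, 38.24% and 35.29%, with calls in both directions. When 1 library was left out, the counts went as low as 8, 11, 10 and 9 of 34. These shares lie near those of all genes, and no excess is read from them.

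With siCop1 in DMSO, 17 of 34 chains changed, against 29.4% of all genes tested: 1 rose (all genes 12.8%) and 16 fell (16.6%). In DMSO Dexa, 18 of 34 chains changed, against 31.1% of all genes tested: 4 rose (all genes 14.4%) and 14 fell (16.7%). In KL001, 16 of 34 chains changed, against 32.7% of all genes tested: 2 rose (all genes 14.5%) and 14 fell (18.2%). In KL001 Dexa, 15 of 34 chains changed, against 30.1% of all genes tested: 3 rose (all genes 13.7%) and 12 fell (16.3%). With the length and GC trend removed, the split was 4 higher and 16 lower in DMSO and 7 higher and 15 lower in KL001 Dexa. The 1 rise in DMSO was lost without siCTRL DMSO replicate 1 or siCop1 DMSO replicate 3, and the rises in DMSO Dexa numbered 2 without siCop1 DMSO Dexa replicate 1. Most of these calls were falls, while falls and rises were more evenly matched over all genes.

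With KL001 in siCTRL, 17 of 34 chains changed, against 6.73% of all genes tested: 1 rose (all genes 3.22%) and 16 fell (3.51%). In siCTRL Dexa, 15 of 34 chains changed, against 10.6% of all genes tested: 1 rose (all genes 4.98%) and 14 fell (5.58%). In siCop1 cells, 16 of 34 chains changed, against 4.09% of all genes tested: 1 rose (all genes 1.77%) and 15 fell (2.32%). In siCop1 Dexa, 15 of 34 chains changed, against 5.46% of all genes tested: 1 rose (all genes 2.5%) and 14 fell (2.97%). The count in siCTRL was 11 without siCTRL DMSO replicate 3 and 9 when only those groups were fitted, and the falls in siCTRL Dexa numbered 9 without siCTRL KL001 Dexa replicate 3. Few genes changed with KL001, and the chains that did fell, with 1 exception in each setting.

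The median log2 change over the 34 chains was −0.18 for siCop1 in DMSO and −0.18 for KL001 in siCTRL, with −0.01 and −0.003 over all genes. For Dexa in siCTRL DMSO the median over the chains was −0.02 and over all genes −0.01. Among the 21 chains of at least 10 CPM, siCop1 lowered 12 in DMSO (16.6% of all genes) and KL001 lowered 14 in siCTRL (3.51% of all genes). Those shares of all genes include scarce genes, in which small changes are harder to detect. The share among all genes of at least 10 CPM was not computed, so how far these chains exceed genes of like level is not known. No share of all genes given for a class or list of genes was matched for level.

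For each factor the values of the 4 comparisons are given side by side. These comparisons are between different groups and share no libraries. Comparisons of different factors do share libraries, since siCTRL DMSO is the control for Dexa, siCop1 and KL001. In all 4 settings Dexa raised Col4a1, Col4a2, Col6a1, Col6a2, Col11a1 and Col12a1 and lowered Col8a2 and Col16a1, and 14 chains changed in none. In all 4 settings siCop1 lowered 11 chains: Col1a1, Col1a2, Col2a1, Col4a1, Col4a2, Col5a1, Col8a2, Col10a1, Col11a1, Col14a1 and Col27a1. In all 4 settings KL001 lowered 12 chains: Col1a1, Col1a2, Col3a1, Col5a3, Col6a1, Col6a2, Col8a2, Col10a1, Col11a1, Col12a1, Col16a1 and Col27a1, and raised Col18a1. The share of all genes that changed in all 4 settings, or in none, was not computed, so these lists are a description. Over the 12 comparisons 180 changes were called, and 128 of them stood in every alternative fit, 34 higher and 94 lower; no call changed direction. The map of changes marks which ones stood.

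**Figure D2:**
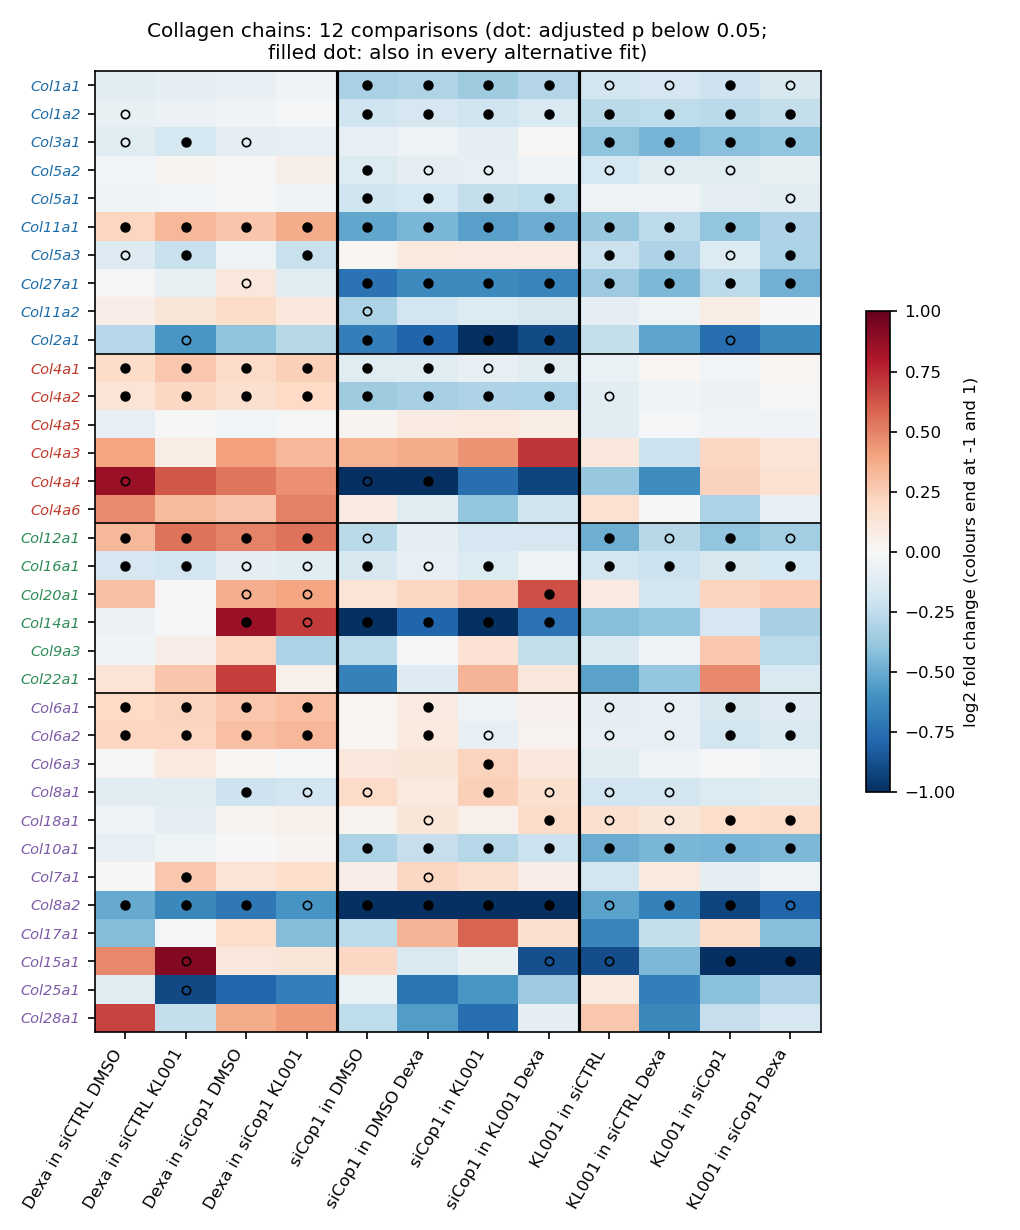
Log2 fold change of the 34 tested chains (rows, grouped by class and ordered by level) in the 12 comparisons (columns); any dot marks an adjusted p below 0.05 in edgeR's quasi-likelihood test and a filled dot a call that stood in every alternative fit. Of 180 dots, 128 are filled; the siCop1 and KL001 columns are mostly blue among the fibrillar chains, and Col4a1 and Col4a2 are red with Dexa.

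Type I collagen is the bulk product of these cells, and both of its chains fell with siCop1 and with KL001. Col1a1 (the α1 chain; 11:94936224-94953042, GRCm38) stood at 21670, 23440 and 23500 CPM in siCTRL DMSO, at 18270, 17810 and 18640 CPM in siCop1 DMSO, at 21400, 20510 and 18640 CPM in siCTRL KL001 and at 16300, 15670 and 15360 CPM in siCop1 KL001. Every siCop1 library lay below every siCTRL library of the same treatment. The siCTRL KL001 libraries lay below siCTRL DMSO, with replicate 1 close to it. Col1a1 fell by 20.3% with siCop1 in DMSO (log2 −0.33, SE 0.044, adjusted p = 5.354e-06 by edgeR's quasi-likelihood test) and by 18.5% to 21.8% over the 4 settings. With KL001 it fell by 11.7% in siCTRL (log2 −0.18, SE 0.044, adjusted p = 0.0138) and by 13.5% in siCop1 (adjusted p = 0.00554). Of the KL001 calls on Col1a1, the one in siCop1 without Dexa stood in every alternative. The call in siCTRL was lost without siCTRL DMSO replicate 2 (log2 −0.16), without siCTRL DMSO replicate 3 (−0.16) and without siCTRL KL001 replicate 3 (−0.13), and when only those groups were fitted (adjusted p = 0.123). The call in siCTRL Dexa was lost without siCTRL DMSO Dexa replicate 2 and without siCTRL KL001 Dexa replicate 2 or 3 (−0.16 to −0.15), and the call in siCop1 Dexa without siCop1 DMSO Dexa replicate 1 or 3 and without siCop1 KL001 Dexa replicate 2 or 3 (−0.17 to −0.13) and when only those groups were fitted. Dexa did not change Col1a1 by this test in any setting (log2 −0.11 to −0.03), with a 95% interval in siCTRL DMSO of −0.20 to −0.02.

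Col1a2 (the α2 chain; 6:4504814-4541544) stood at 16270, 16630 and 16930 CPM in siCTRL DMSO, 14350, 14290 and 14750 CPM in siCop1 DMSO, 14420, 13420 and 13530 CPM in siCTRL KL001 and 12110, 12070 and 11880 CPM in siCop1 KL001. The siCop1 KL001 libraries were the lowest of these 4 groups, and neither siCop1 DMSO nor siCTRL KL001 overlapped siCTRL DMSO. Col1a2 fell by 12.9% with siCop1 in DMSO (log2 −0.20, SE 0.025, adjusted p = 1.793e-07) and by 17.0% with KL001 in siCTRL (log2 −0.27, SE 0.025, adjusted p = 9.777e-09). All 8 siCop1 and KL001 calls on Col1a2 stood in every alternative. The call of Dexa in siCTRL DMSO (log2 −0.07, adjusted p = 0.0271) was lost in 7 alternatives, among them 5 of the 6 that left out a library of the groups compared. The Col1a1 to Col1a2 ratio of counts per kilobase was 1.201 to 1.379 in the 12 siCTRL libraries and 1.059 to 1.214 in the 12 siCop1 libraries. These ranges overlap slightly, and the ratio was not tested.

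Type III collagen, the homotrimer that co-assembles with type I in young and healing tissue, fell with KL001 and did not pass the test with siCop1 in any setting. Col3a1 (1:45311538-45349706) stood at 4508, 4547 and 4701 CPM in siCTRL DMSO, 4209, 4305 and 4504 CPM in siCop1 DMSO, 3682, 3266 and 3435 CPM in siCTRL KL001 and 3236, 3313 and 3216 CPM in siCop1 KL001. All KL001 libraries lay below all DMSO libraries of these groups, and siCop1 DMSO replicate 3 came close to siCTRL DMSO replicate 1 from below. With KL001 it fell by 24.5% in siCTRL (log2 −0.41, SE 0.036, adjusted p = 1.37e-08) and by 0.40 to 0.46 on the log2 scale over the 4 settings. For siCop1 in DMSO the log2 difference was −0.08 (95% interval −0.16 to −0.004, adjusted p = 0.103), so a small fall lies within the interval. The Col3a1 to Col1a1 ratio per kilobase was 0.1665 to 0.2217 in siCTRL and 0.2077 to 0.2674 in siCop1 libraries. With Dexa in siCTRL KL001, Col3a1 fell by 11.7% (log2 −0.18, adjusted p = 0.000317), a call that stood in every alternative.

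**Figure D3:**
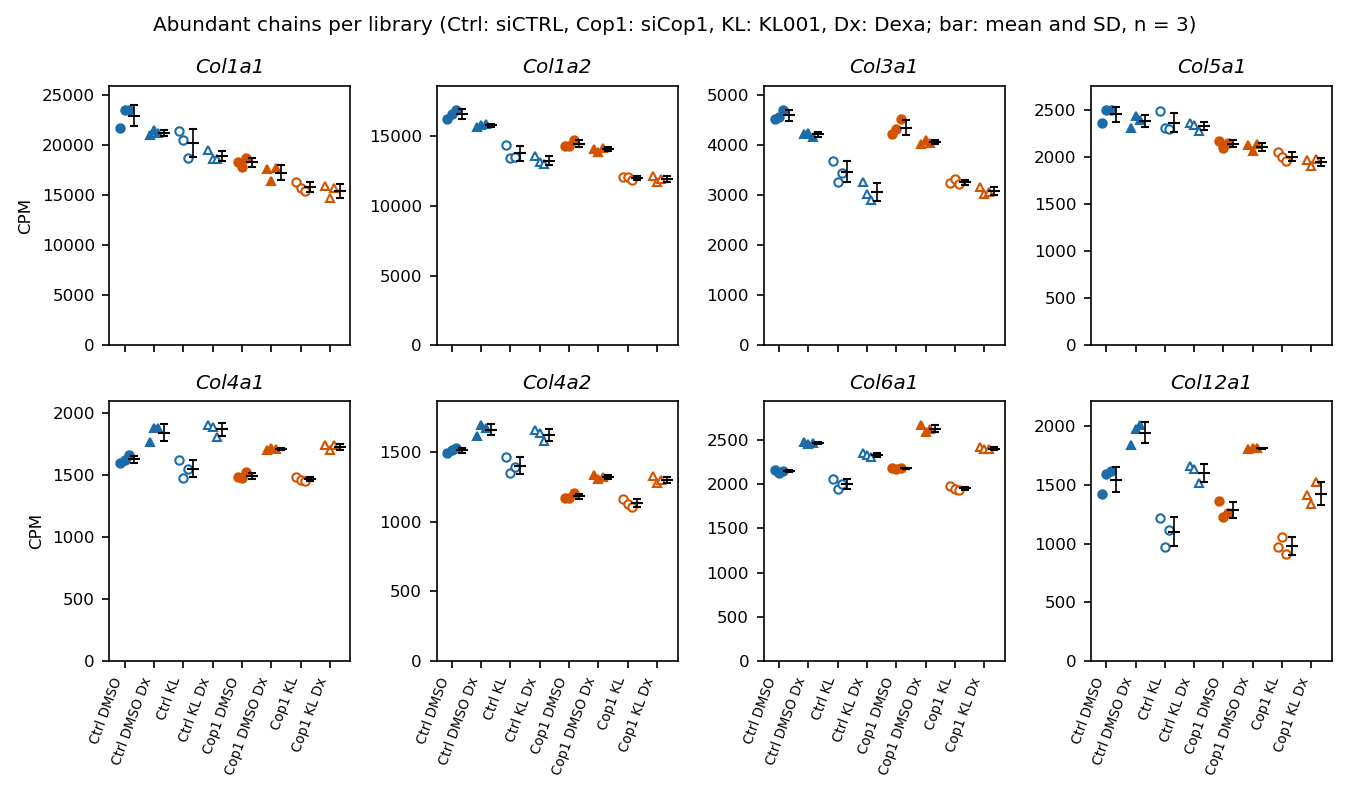
CPM of 8 abundant chains in each library, by group; points are the 3 libraries (blue siCTRL, orange siCop1; open symbols KL001; triangles Dexa), and the bar beside them is the mean and SD. Col1a1 runs from 14650 CPM in a siCop1 KL001 Dexa library to 23500 CPM in a siCTRL DMSO library, and Col4a1 and Col6a1 are higher in each group of triangles than in the circles beside it.

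Type V and type XI chains are minor fibril components that are known to set fibril diameter from inside the fibril. Col5a1 stood at 2361, 2500 and 2491 CPM in siCTRL DMSO and at 2170, 2098 and 2148 CPM in siCop1 DMSO. These groups did not overlap, and Col5a1 fell with siCop1 in all 4 settings, by 11.4% to 16.3% (log2 −0.26 to −0.17, SE 0.03). Its log2 difference with KL001 was −0.05 in siCTRL (95% interval −0.12 to 0.01, adjusted p = 0.355 by edgeR's quasi-likelihood test), and its KL001 call in siCop1 Dexa (log2 −0.12) was lost without siCop1 DMSO Dexa replicate 1 or 3 or siCop1 KL001 Dexa replicate 2 (−0.11 to −0.10). Col5a2 also fell with siCop1 in DMSO (log2 −0.14, adjusted p = 0.00112), a call that stood in every alternative. The siCop1 call on Col5a2 in KL001 (adjusted p = 0.0487) was lost in 9 alternatives (log2 −0.09 to −0.05), 4 of them without siCTRL KL001 replicate 1 or 3 or siCop1 KL001 replicate 1 or 3, and the one in DMSO Dexa without siCTRL DMSO Dexa replicate 3 or siCop1 DMSO Dexa replicate 3 (−0.09 to −0.08). Col5a3 did not pass with siCop1 in any setting (log2 0.02 to 0.10) and fell with KL001 in all 4 (log2 −0.32 to −0.14, with the call in siCop1 without Dexa lost in 9 alternatives, 6 of them without 1 library at −0.16 to −0.11). Col5a3 also fell with Dexa in siCTRL KL001 (log2 −0.22, SE 0.042) and fell by 14.4% in siCop1 KL001, both standing in every alternative.

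Col11a1, the α1 chain of type XI, responded to all 3 factors. It stood at 368, 393 and 402 CPM in siCTRL DMSO, 423, 464 and 459 CPM in siCTRL DMSO Dexa, 322, 268 and 303 CPM in siCTRL KL001 and 276, 258 and 276 CPM in siCop1 DMSO. The Dexa libraries were all higher than siCTRL DMSO, and the KL001 and siCop1 libraries all lower. In the siCop1 KL001 group it was lowest, at 204, 207 and 204 CPM. Col11a1 fell by 30.4% with siCop1 in DMSO (log2 −0.52, SE 0.051, adjusted p = 1.65e-08), fell by 23.1% with KL001 in siCTRL (log2 −0.38, SE 0.051, adjusted p = 2.072e-05) and rose by 15.8% with Dexa in siCTRL DMSO (log2 0.21, SE 0.05, adjusted p = 0.00227). Over the 4 settings the log2 changes were −0.54 to −0.45 for siCop1, −0.40 to −0.26 for KL001 and 0.21 to 0.37 for Dexa, and all 12 calls stood in every alternative.

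Col27a1, a fibrillar chain known from cartilage and developing tissue, had the smallest adjusted p of the fibrillar chains for siCop1 in DMSO. It stood at 72.4, 72.1 and 71.9 CPM in siCTRL DMSO and at 43.1, 41.5 and 45.1 CPM in siCop1 DMSO. It stood at 55.4, 55.5 and 56.98 CPM in siCTRL KL001 and at 36.5, 37.1 and 34.4 CPM in siCop1 KL001. Each of the 4 groups was apart from the others. Col27a1 fell by 40.1% with siCop1 in DMSO (log2 −0.74, SE 0.039, adjusted p = 5.998e-15) and by 22.4% with KL001 in siCTRL (log2 −0.37, SE 0.038, adjusted p = 9.023e-08). The siCop1 calls in all 4 settings (log2 −0.74 to −0.64) and the KL001 calls in all 4 (log2 −0.48 to −0.26) stood in every alternative.

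Col2a1, the chain of cartilage type II collagen, was scarce. Its counts were 88, 78 and 70 in siCTRL DMSO and 63, 48 and 38 in siCop1 DMSO, and 33, 25 and 31 in siCop1 KL001 against 70, 71 and 57 in siCTRL KL001. The siCop1 libraries were lower in both pairs without overlap. It fell with siCop1 by 0.68 on the log2 scale in DMSO (SE 0.187, adjusted p = 0.00581) and by 1.20 in KL001 (SE 0.205, adjusted p = 3.345e-05), and the siCop1 calls in all 4 settings stood in every alternative. The summed chondrocyte markers were 55.4 to 59.6 CPM in siCop1 DMSO and 47.9 to 54.5 CPM in siCTRL DMSO. In DMSO Dexa they were 67.2 to 73.7 CPM in siCop1 and 71.3 to 73.2 CPM in siCTRL, with overlap. In KL001 they were 51.3 to 55.4 CPM in siCop1 and 44.5 to 48.4 CPM in siCTRL. In KL001 Dexa they were 61.2 to 65.3 CPM in siCop1 and 57.9 to 63.1 CPM in siCTRL, with overlap. Sox9 held most of these sums, and any part of chondrocyte-like cells in the falls was not tested.

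Among the fibrillar chains as a class, siCop1 lowered 8, 7, 7 and 6 of 10 in DMSO, DMSO Dexa, KL001 and KL001 Dexa and raised none, where it lowered 16.6%, 16.7%, 18.2% and 16.3% of all genes. KL001 lowered 7, 7, 8 and 7 of 10 in siCTRL, siCTRL Dexa, siCop1 and siCop1 Dexa and raised none, where it lowered 3.51%, 5.58%, 2.32% and 2.97% of all genes. Dexa changed 4, 4, 3 and 2 of 10, in both directions, which lies around its share of all genes (26.8%, 26.8%, 23.7% and 24.5%).

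Type IV collagen in most basement membranes is made of α1 and α2 chains, encoded by Col4a1 and Col4a2. The 2 genes lie head to head on chromosome 8 and their annotated exons overlap at the starts by 22 bases. Both chains rose with Dexa. Col4a1 (8:11198423-11312826) stood at 1598, 1625 and 1661 CPM in siCTRL DMSO and at 1769, 1882 and 1884 CPM in siCTRL DMSO Dexa. Col4a2 (8:11312805-11449287) stood at 1491, 1515 and 1532 CPM in siCTRL DMSO and at 1619, 1695 and 1672 CPM in siCTRL DMSO Dexa. The Dexa libraries were higher without overlap for both. Dexa raised Col4a1 by 13.3% (log2 0.18, SE 0.029, adjusted p = 1.501e-05) and Col4a2 by 9.89% (log2 0.14, SE 0.028, adjusted p = 0.000369), and over the 4 settings the log2 changes were 0.18 to 0.27 and 0.14 to 0.21. All 8 calls stood in every alternative.

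With siCop1 the 2 chains fell by different amounts. In siCop1 DMSO, Col4a1 stood at 1488, 1479 and 1525 CPM and Col4a2 at 1174, 1174 and 1203 CPM. Both groups lay below siCTRL DMSO. Col4a1 fell by 8.03% (log2 −0.12, SE 0.029, 95% interval −0.18 to −0.06, adjusted p = 0.00211) and Col4a2 by 21.8% (log2 −0.35, SE 0.028, 95% interval −0.41 to −0.30, adjusted p = 4.123e-11). The ratio of Col4a1 to Col4a2 per kilobase was 1.045 to 1.128 in the 12 siCTRL libraries and 1.229 to 1.311 in the 12 siCop1 libraries, with no overlap. Between-chain differences were not tested, and the ratio is a description. Across the 4 settings Col4a1 fell by 0.08 to 0.12 and Col4a2 by 0.31 to 0.35 on the log2 scale; the siCop1 call on Col4a1 in KL001 (adjusted p = 0.0331) was lost in 8 alternatives, 4 of them the fits without siCTRL KL001 replicate 1 or 3 or siCop1 KL001 replicate 2 or 3 (log2 −0.08 to −0.05). KL001 left Col4a1 without a call in all 4 settings (log2 −0.07 to 0.02), and its call on Col4a2 in siCTRL (log2 −0.11) was lost in 4 alternatives, 3 of them without siCTRL DMSO replicate 3 or siCTRL KL001 replicate 2 or 3 (−0.10 to −0.08).

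**Figure D4:**
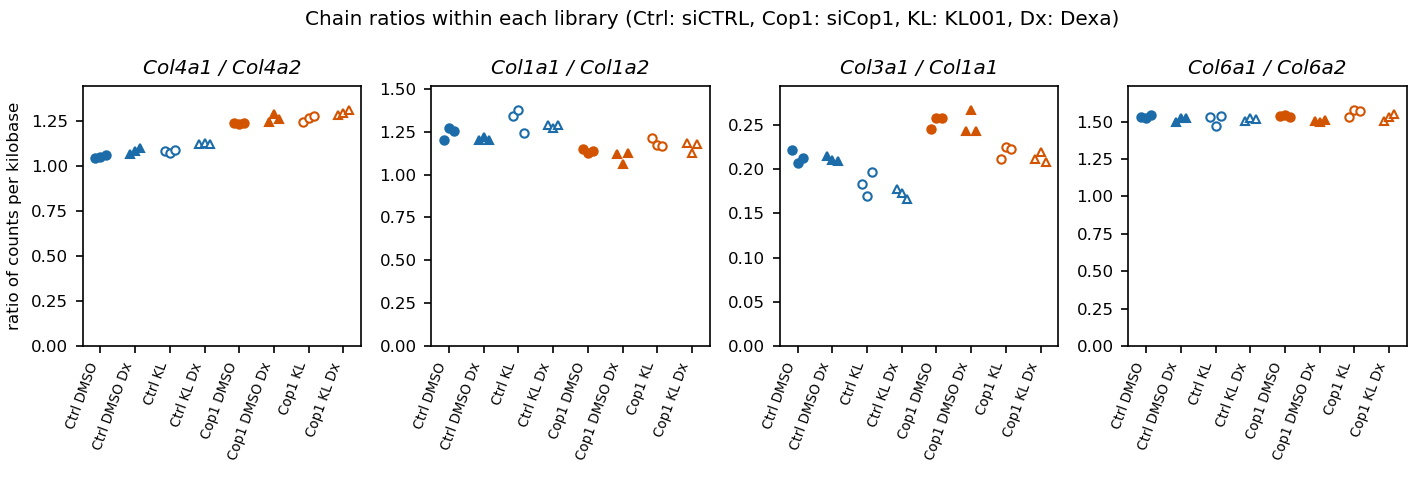
Ratio of counts per kilobase between pairs of chains in each library, by group (blue siCTRL, orange siCop1; open symbols KL001; triangles Dexa). The Col4a1 to Col4a2 ratio is 1.045 to 1.128 in siCTRL and 1.229 to 1.311 in siCop1 libraries, while the Col6a1 to Col6a2 ratio stays between 1.473 and 1.58 throughout.

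The α5 chain gene Col4a5, a partner of Col4a3 and Col4a4 in the kidney and of Col4a6 in smooth muscle, was called in none of the 12 comparisons. It stood at 487, 502 and 514 CPM in siCTRL DMSO, 436, 489 and 492 CPM with Dexa and 505, 499 and 531 CPM in siCop1 DMSO. The groups overlapped in part, and the log2 difference for siCop1 in DMSO was 0.03 (95% interval −0.09 to 0.15). Its ratio to Col4a1 per kilobase was 0.2826 to 0.3583 without Dexa and 0.2476 to 0.3039 with Dexa. Col4a3, Col4a4 and Col4a6 averaged under 1 CPM. Of these, Col4a4 fell with siCop1 in DMSO Dexa (log2 −1.70, adjusted p = 0.000294), where its counts were 27, 33 and 34 in siCTRL and 12, 11 and 7 in siCop1, and that call stood in every alternative. The Col4a4 call of siCop1 in DMSO (log2 −1.37) was lost without siCop1 DMSO replicate 2 (−0.93), and its Dexa call in siCTRL DMSO (log2 0.87) in 5 alternatives, 4 of them without replicate 2 or 3 of either group (0.77 to 0.85). Of 6 type IV chains, Dexa raised 3, 2, 2 and 2, the first count with that Col4a4 call, against 12.7%, 12.7%, 12% and 12.1% of all genes. With siCop1 3, 3, 2 and 2 fell, against 16.6%, 16.7%, 18.2% and 16.3% of all genes.

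Among the FACIT chains, Col12a1, which is known to bridge fibrils in tissues under load, rose with Dexa in all 4 settings. It stood at 1420, 1595 and 1623 CPM in siCTRL DMSO and at 1843, 1978 and 2011 CPM in siCTRL DMSO Dexa. It stood at 1217, 970 and 1112 CPM in siCTRL KL001 and at 1659, 1638 and 1514 CPM in siCTRL KL001 Dexa. The Dexa groups were higher and the KL001 groups lower without overlap. Dexa raised Col12a1 by 25.7% in siCTRL DMSO (log2 0.33, SE 0.076, adjusted p = 0.00269) and by 45.8% in siCTRL KL001 (log2 0.54, SE 0.076, adjusted p = 1.788e-05), and the KL001 by Dexa interaction in siCTRL did not pass (log2 0.21, adjusted p = 0.81). With KL001 it fell by 28.9% in siCTRL (log2 −0.49, SE 0.076, adjusted p = 0.000495). The KL001 calls with Dexa depended on single libraries. In siCTRL Dexa the call (log2 −0.28) was lost without replicate 2 or 3 of siCTRL DMSO Dexa or of siCTRL KL001 Dexa (−0.29 to −0.24), and in siCop1 Dexa (log2 −0.35) without siCop1 KL001 Dexa replicate 2 (−0.30). The siCop1 call in DMSO (log2 −0.27) was lost without siCTRL DMSO replicate 2 or 3 or siCop1 DMSO replicate 2 (−0.24 to −0.22).

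Col16a1, another FACIT chain, fell with Dexa and with KL001 in all 4 settings of each, and with siCop1 in 3 of 4. It stood at 540, 523 and 525 CPM in siCTRL DMSO, 479, 464 and 473 CPM in siCTRL DMSO Dexa and 469, 464 and 464 CPM in siCTRL KL001. Both treated groups were below the control without overlap. It fell by 10.9% with Dexa (log2 −0.17, SE 0.028, adjusted p = 2.358e-05) and fell by 12.02% with KL001 (log2 −0.19, SE 0.028, adjusted p = 4.62e-05). With siCop1 in DMSO it fell by 10.7% (log2 −0.16, SE 0.028). The siCop1 call in DMSO Dexa (log2 −0.09) was lost in 4 alternatives, 1 of them without siCop1 DMSO Dexa replicate 3 (−0.08). Its Dexa calls in siCop1 were lost when a trend with length and GC content was removed (log2 −0.06 in both settings), and the one in siCop1 DMSO also without siCop1 DMSO replicate 3 (−0.08) and siCop1 DMSO Dexa replicate 3 (−0.08).

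Col14a1, a FACIT chain of mature tendon and skin, was scarce and had the largest fall among chains of at least 1 CPM with siCop1 in DMSO. Its counts were 89, 67 and 72 in siCTRL DMSO, 23, 27 and 20 in siCop1 DMSO, 74, 77 and 58 in siCTRL DMSO Dexa and 41, 45 and 39 in siCop1 DMSO Dexa. The siCop1 libraries were lower in both pairs. It fell by 1.71 on the log2 scale with siCop1 in DMSO (SE 0.178, adjusted p = 8.21e-09) and by 0.80 in DMSO Dexa (SE 0.164, adjusted p = 0.000368). Dexa raised it in siCop1 DMSO (log2 0.86, SE 0.192, adjusted p = 0.000967) and its log2 difference in siCTRL DMSO was −0.06. The test of that difference, the siCop1 by Dexa interaction in DMSO, gave a log2 term of 0.92 with an adjusted p of 0.0902, which did not pass. The Dexa call on Col14a1 in siCop1 KL001 (log2 0.70) was lost without siCop1 KL001 replicate 3 (0.61) or siCop1 KL001 Dexa replicate 1 (0.63), by DESeq2 and with no filter. Col20a1, another FACIT chain, rose with siCop1 in KL001 Dexa (log2 0.65, SE 0.119, adjusted p = 9e-05), a call that stood in every alternative.

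Type VI collagen is assembled from the products of Col6a1, Col6a2 and a larger chain such as that of Col6a3. Col6a1 and Col6a2 both rose with Dexa in all 4 settings. Col6a1 stood at 2161, 2133 and 2155 CPM in siCTRL DMSO and at 2480, 2462 and 2464 CPM in siCTRL DMSO Dexa, and at 2185, 2175 and 2181 CPM in siCop1 DMSO against 2672, 2592 and 2623 CPM in siCop1 DMSO Dexa. Col6a2 stood at 1358, 1350 and 1347 CPM in siCTRL DMSO and at 1595, 1556 and 1560 CPM in siCTRL DMSO Dexa. For both chains every Dexa library, of all 24, was above every library without Dexa. Dexa raised Col6a1 by 14.8% in siCTRL DMSO (log2 0.20, SE 0.022, adjusted p = 1.504e-08) and by 23.0% in siCop1 KL001 (log2 0.30, SE 0.022, adjusted p = 3.571e-12), and Col6a2 by 16.2% and 25.9% (log2 0.22 and 0.33, SE 0.024). All 8 of these Dexa calls stood in every alternative. Col6a3 stood at 921, 973 and 987 CPM in siCTRL DMSO and at 923, 998 and 986 CPM in siCTRL DMSO Dexa. These groups overlapped, and its log2 difference was 0.01 (95% interval −0.10 to 0.13).

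KL001 lowered Col6a1 and Col6a2 by small amounts, most firmly in siCop1 (Col6a1 log2 −0.16, SE 0.022, adjusted p = 1.336e-05; Col6a2 log2 −0.18, SE 0.024, adjusted p = 6.383e-06). In siCTRL the Col6a1 call (log2 −0.10, adjusted p = 0.00354) was lost when only the 2 groups compared were fitted (adjusted p = 0.26), and in siCTRL Dexa (log2 −0.08) it was lost with no filter, with only those groups fitted and without siCTRL KL001 Dexa replicate 3 (−0.08). The Col6a2 calls in siCTRL (log2 −0.08) and siCTRL Dexa (−0.08) were lost in 7 and 6 alternatives, among them fits without 1 library. The Col6a1 to Col6a2 ratio per kilobase stayed between 1.473 and 1.58 in all 24 libraries. Col6a3 rose with siCop1 in KL001 (log2 0.22, SE 0.054, adjusted p = 0.00276), a call that stood in every alternative. With siCop1 in DMSO Dexa, Col6a1 rose by 0.09 (SE 0.022) and Col6a2 by 0.10 (SE 0.024) on the log2 scale, also in every alternative. Col7a1, the anchoring fibril chain, rose with Dexa in siCTRL KL001 (log2 0.27, SE 0.068, adjusted p = 0.00252).

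The short-chain collagens form hexagonal networks, and Col8a2 fell with each of the 3 factors. Col8a2, one chain of the network collagen of the corneal and vascular matrix, stood at 11.9, 10.99 and 14.3 CPM in siCTRL DMSO and at 5.25, 4.78 and 4.80 CPM in siCop1 DMSO. It stood at 8.95, 9.34 and 7.93 CPM in siCTRL DMSO Dexa, 8.47, 8.63 and 8.59 CPM in siCTRL KL001 and 2.07, 1.12 and 2.09 CPM in siCop1 KL001 Dexa. Each treatment alone was below siCTRL DMSO without overlap, and the group with all 3 was lowest. Col8a2 fell with siCop1 by 1.33 on the log2 scale in DMSO (SE 0.13, adjusted p = 4.595e-09) and by 1.33 to 1.71 over the 4 settings, all standing in every alternative. It fell with Dexa by 0.51 in siCTRL DMSO (SE 0.122, adjusted p = 0.00192) and with KL001 by 0.53 in siCTRL (SE 0.121, adjusted p = 0.00579). That KL001 call was lost without siCTRL DMSO replicate 3 (log2 −0.42), the one in siCop1 Dexa without siCop1 DMSO Dexa replicate 1 (−0.69) or siCop1 KL001 Dexa replicate 2 (−0.54), and the Dexa call in siCop1 KL001 without siCop1 KL001 replicate 2 or 3 or siCop1 KL001 Dexa replicate 2 (−0.62 to −0.33). Its partner chain Col8a1 stood at 243, 265 and 270 CPM in siCTRL DMSO and 289, 291 and 306 CPM in siCop1 DMSO and so lay on the other side. It fell with Dexa in siCop1 DMSO (log2 −0.21, SE 0.055, adjusted p = 0.00658) and rose with siCop1 in KL001 (log2 0.24, SE 0.055, adjusted p = 0.00154), the siCop1 call on Col8a1 that stood in every alternative.

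Col10a1, a chain known as a marker of hypertrophic cartilage, was present at 53.5, 52.8 and 52.9 CPM in siCTRL DMSO, 40.1, 34.1 and 38.4 CPM in siCTRL KL001, 42.1, 42.7 and 43.0 CPM in siCop1 DMSO and 32.1, 29.7 and 30.6 CPM in siCop1 KL001. KL001 and siCop1 libraries were each below siCTRL DMSO without overlap. With KL001 it fell by 29.2% in siCTRL (log2 −0.50, SE 0.051, adjusted p = 5.716e-08) and with siCop1 it fell by 19.7% in DMSO (log2 −0.32, SE 0.05, adjusted p = 1.015e-05), and all 8 calls stood in every alternative. Dexa gave no call (log2 −0.08 to 0.03). Col10a1 shares 18 exonic bases with Nt5dc1 on the other strand, and the strand setting of the counting is not stated. Such overlaps with other genes covered at most 6.07% of a chain's exonic bases, in Col9a3.

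Col18a1, a basement membrane zone multiplexin whose C-terminal fragment is endostatin, was the chain that rose with KL001. It stood at 79.7, 74.6 and 77.3 CPM in siCTRL DMSO and 89.8, 83.3 and 85.5 CPM in siCTRL KL001, and at 80.4, 79.5 and 77.4 CPM in siCop1 DMSO and 87.8, 89.8 and 90.5 CPM in siCop1 KL001. The KL001 libraries were higher without overlap in both pairs. It rose by 12.96% in siCop1 (log2 0.18, SE 0.038, adjusted p = 0.00433) and by 14.1% in siCop1 Dexa (log2 0.19, adjusted p = 0.00166), both standing in every alternative. The call in siCTRL (log2 0.16, adjusted p = 0.00921) was lost without siCTRL DMSO replicate 2 (0.13) or siCTRL KL001 replicate 1 (0.13) and with only those groups fitted, and the call in siCTRL Dexa (0.12) in 7 alternatives, 4 of them without 1 library (0.09 to 0.13). With siCop1 in KL001 Dexa Col18a1 rose as well (log2 0.19, adjusted p = 0.000301). The related multiplexin Col15a1 fell with KL001 in siCop1 (log2 −1.17, SE 0.255, adjusted p = 0.00442), where its counts were 30, 35 and 35 in DMSO and 17, 13 and 15 in KL001.

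**Figure D5:**
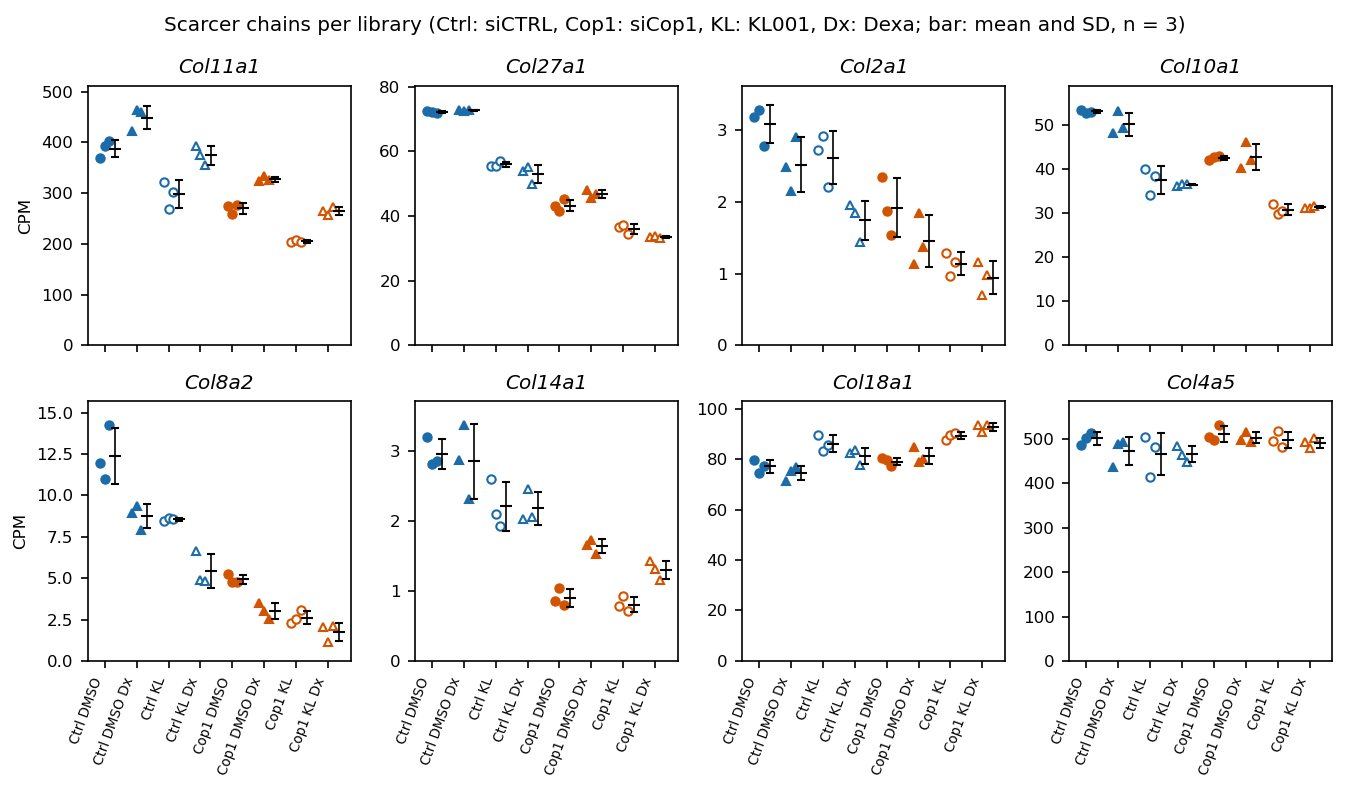
CPM of 8 scarcer chains in each library, by group; points are the 3 libraries (blue siCTRL, orange siCop1; open symbols KL001; triangles Dexa), and the bar beside them is the mean and SD. Col8a2 goes from 10.99 to 14.3 CPM in siCTRL DMSO to 1.12 to 2.09 CPM in siCop1 KL001 Dexa, and Col4a5 overlaps between most groups.

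Whether the factors depended on one another was tested with 4 interaction terms. No chain passed in any of them by edgeR's quasi-likelihood test or by DESeq2 (0 of 34 each), against 0.67% of all genes for siCop1 by Dexa in DMSO (0.291% with a higher term and 0.379% with a lower one), 0% for siCop1 by KL001 without Dexa, 0% for KL001 by Dexa in siCTRL and 0.562% for siCop1 by Dexa in KL001 (0.264% higher and 0.298% lower). At an unadjusted p below 0.05 there were 3, 2, 2 and 6 chains, and the share of all genes at that threshold was not computed. These counts do not show that the effects were independent.

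Collagen chains need a set of enzymes and chaperones: prolyl and lysyl hydroxylases, the chaperone HSP47 (Serpinh1), propeptide proteases and their enhancer (Bmp1, Pcolce), and lysyl oxidases that cross-link the finished fibrils. Of 32 such genes 29 were tested. With siCop1 in DMSO 23 of them changed (2 higher, 21 lower; median log2 −0.22, with −0.01 over all genes), in DMSO Dexa 25 (4 higher, 21 lower), in KL001 24 (2 higher, 22 lower) and in KL001 Dexa 23 (5 higher, 18 lower), where 29.4%, 31.1%, 32.7% and 30.1% of all genes changed. Of these siCop1 calls 19, 21, 21 and 22 stood in every alternative. With KL001 in siCTRL 13 of 29 changed (3 higher, 10 lower, against 6.73% of all genes), of which 4 stood in every alternative. In siCTRL Dexa 16 changed (3 higher, 13 lower, against 10.6%), in siCop1 14 (1 higher, 13 lower, against 4.09%) and in siCop1 Dexa 10 (2 higher, 8 lower, against 5.46%). Of these KL001 calls 11, 8 and 5 stood. With Dexa in siCTRL DMSO 11 changed (8 higher, 3 lower, against 26.8% of all genes), and these 11 stood in every alternative. In siCTRL KL001 12 changed (26.8%), in siCop1 DMSO 11 (23.7%) and in siCop1 KL001 11 (24.5%), of which 10, 9 and 11 stood. With siCop1 in DMSO the largest falls were in the lysyl oxidase family genes Loxl2 (log2 −1.17, SE 0.251, adjusted p = 0.00057) and Loxl4 (log2 −0.84, SE 0.047, adjusted p = 1.618e-14), while the procollagen C-proteinase Bmp1 rose (log2 0.10, SE 0.026, adjusted p = 0.00306). Serpinh1 fell as well (log2 −0.38, from 3330 to 2557 CPM), as did Pcolce (log2 −0.35); these 2 were named after their values were seen. With Dexa in siCTRL DMSO, Loxl3 rose by 0.86 (SE 0.033) and Lox by 0.54 (SE 0.042, from 2251 to 3279 CPM), while P3h2, a prolyl 3-hydroxylase that acts on type IV chains, fell by 0.42 (SE 0.075) and the lysyl hydroxylase Plod2 by 0.34 (SE 0.043). With KL001 in siCTRL, the prolyl 4-hydroxylase subunit P4ha3 fell by 0.34 (SE 0.042) and Lox by 0.30 (SE 0.042), and Loxl4 rose by 0.24 (SE 0.044). The siCop1 call on Lox (log2 0.11, adjusted p = 0.0462) was lost without siCTRL DMSO replicate 1 or 2 or any 1 siCop1 DMSO library (0.09 to 0.13), and the KL001 call on P3h2 (log2 0.29) without siCTRL KL001 replicate 3 (0.24) and with only those groups fitted.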

How the data were processed

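RNA-seq libraries (stranded poly(A) kit, single 50-base reads) were prepared from MEFs, 24 in all. The authors deposited raw counts per gene; per the submitters' processing notes the tools were bcl2fastq 1.8.4, STAR 2.4.5a, featureCounts (Subread 1.4.6-p3), Picard 1.126 and DESeq2, with GRCm38 (mm10). The authors' normalized table was not used. No source used here gives the strand setting of the counting.

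From the deposited counts, genes were kept with edgeR's filterByExpr (minimum count 10, minimum total 15; 14772 genes), scaled by TMM and fitted with 8 group means over all 24 libraries (robust quasi-likelihood, 16 residual degrees of freedom; biological coefficient of variation 3.706%; R 4.3.3, edgeR 4.0.16, limma 3.58.1). This gave 12 simple effects and 4 interactions, adjusted by Benjamini-Hochberg over all genes, with a threshold of 0.05. CPM uses TMM-adjusted totals of kept genes. Standard errors were derived from the F statistic, and 95% intervals from them. Lengths are those of GENCODE vM21 principal transcripts; promoters are from RefSeq. Library depth limits precision for chains under 1 CPM.

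No libraries were duplicates: replicate pairs differed by 1.56 to 8.76 times sampling noise (chi-square per degree of freedom). The collagen chains, classes, gene lists and tests were chosen with earlier results of these data known. Named chains are Col1a1, Col1a2, Col3a1, Col4a1 and Col4a2, plus, per effect, up to 4 higher and 4 lower calls with the largest change, a mean of at least 1 CPM, no overlap between groups and a call in every alternative; other chains are given by class, level or count, or were named after their values were seen. Alternatives were RLE scaling, no filter, DESeq2 1.42.0, a replicate block, only the groups compared, removal of a length and GC trend (spline with 4 degrees of freedom), and leaving out each library in turn (24 refits). Marker lists covered fibroblast, chondrocyte, osteoblast (summed level 77.3 to 91.4 CPM, mostly Runx2), squamous epithelium, heart muscle, endothelial (0.729 to 3.03 CPM), blood (2.55 to 15.1 CPM) and neural and Schwann cells (10.1 to 18.9 CPM). The method was tested on simulated data.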

Additional observations from a re-analysis of the deposited data

How the results depend on the processing

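Of 232 counts of changed chains under alternatives, 227 were within 1.5 times the reported count. These include the interaction counts, where the reported count was 0 and 0 was taken as the same. None of 2159 refitted values of the 180 calls changed direction, and chains without a call were not included. Of the 180 calls, 52 were lost in at least 1 alternative. For KL001 in siCTRL, 17 changed chains became 9 when only the groups compared were fitted, and 11 to 18 when 1 library was left out (11 without siCTRL DMSO replicate 3). For the siCop1 by Dexa interaction in DMSO the count was 0 to 1 when 1 library was left out (1 without siCTRL DMSO Dexa replicate 2). The KL001 by Dexa interaction in siCTRL gave 1 chain with no filter, and the siCop1 by Dexa interaction in KL001 gave 1 with the length and GC trend removed. The cause of these differences was not tested, except that fitting 2 groups leaves fewer libraries. With the replicate block the counts for Dexa were 12, 14, 12 and 12, for siCop1 17, 18, 15 and 15, and for KL001 16, 15, 15 and 15. The block joined libraries of the same number across siCTRL and siCop1, as did a check of how libraries deviated from their group means. Median r was 0.017 over 84 same-numbered pairs (−0.442 to 0.391) and 0.002 over 168 pairs of different number (−0.51 to 0.43). Of 24 libraries, 11 correlated best with their own number. The labels give siCTRL and siCop1 libraries different name stems, so any pairing by name would lie within the same siRNA. Pairing within the same siRNA was not tested, and the numbers were not taken as pairs. With the heart muscle marker sum as a covariate, chosen after seeing the data, the counts were 11, 14, 13 and 12 for Dexa, 16, 18, 18 and 15 for siCop1 and 16, 15, 16 and 15 for KL001. RLE scaling moved the median of all genes by at most 0.01. Chains under 1 CPM have too few counts for small changes to be detectable.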

Other observations

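A list of collagen receptors and fibril partners holds integrins, discoidin receptors, small proteoglycans of fibrils, and Mrc2, Gp6, Lair1, Sparc, Fn1 and Tnxb. Of its 17 genes 15 were tested. With siCop1 in DMSO 12 of them changed (2 higher, 10 lower; 29.4% of all genes changed), of which 7 stood in every alternative; the calls on Ddr2, Fn1, Itga2, Itgb1 and Mrc2 were each lost in at least 1. In DMSO Dexa 7 changed (0 higher, 7 lower; 31.1% of all genes), in KL001 10 (1 higher, 9 lower; 32.7%) and in KL001 Dexa 9 (1 higher, 8 lower; 30.1%). Fmod, which encodes the fibril-binding proteoglycan fibromodulin, stood at 73.1 CPM in siCTRL DMSO, 24.5 CPM in siCop1 DMSO and 46.2 CPM in siCTRL KL001 on average; it fell by 1.58 on the log2 scale with siCop1 (SE 0.045, adjusted p = 4.007e-21, edgeR) and fell by 0.66 with KL001 in siCTRL (SE 0.041). Itga1, a subunit of the collagen receptor integrin α1β1, fell with siCop1 by 0.99 (SE 0.09). With KL001 in siCTRL 4 of 15 genes changed (0 higher, 4 lower, against 6.73% of all genes). Of these calls 1 stood in every alternative, and those on Bgn, Itga11 and Sparc were lost in at least 1. In siCTRL Dexa 5 changed (10.6% of all genes), in siCop1 4 (4.09%) and in siCop1 Dexa 6 (5.46%), of which 4, 3 and 4 stood. With Dexa in siCTRL DMSO 5 of 15 changed (3 higher, 2 lower), near the 26.8% of all genes, and 2 of these calls, on Itgb1 and Sparc, were lost in at least 1 alternative. In siCTRL KL001 9 changed (2 higher, 7 lower, against 26.8% of all genes), of which 6 stood in every alternative. In siCop1 DMSO 5 did so (2 up, 3 down, against 23.7%), and 2 stood. In siCop1 KL001 6 did so (4 up, 2 down, against 24.5%), and 2 stood. Itga10, a collagen-binding integrin subunit known from chondrocytes, rose in siCTRL DMSO from 11.5 to 35.2 CPM (log2 1.62, SE 0.08, adjusted p = 4.721e-16), and Itga11, its fibroblast relative, fell by 0.46 (SE 0.038). Fmod, Itga1, Itga10 and Itga11 were named after their values were seen.

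Over the 8 group means and 9589 genes of at least 10 CPM, the genes whose log2 CPM followed Col1a1 most closely were Thbs3 (Pearson r = 0.997), Ptn (0.995), Efemp2 (0.994), Mpc2 (0.992) and Aff3 (0.992). Among the chains, Col5a1 (0.97) ranked 25 and Col27a1 (0.967) ranked 31, whereas Col1a2 (0.9), the partner of Col1a1 in type I collagen, ranked 275 and Col3a1 (0.617) ranked 1942. The 8 points share 3 factors, so these values are a description.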
